A study of Bos taurus with 15 samples.

Results

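Mammary gland of lactating Holstein heifers held 100 kb stretches of the genome in which CpG methylation was lower than elsewhere, and these stretches, here called member bins, are described. The autosomes (chromosomes 1 to 29 of the bovine assembly UMD3.1.1) were divided into bins of 100 kb. A member bin had at least 200 cytosine positions read in at least 1 of the 6 heifers, between 1 and 10 such positions per kb, and a mean mammary methylation level under 65%. Members were therefore selected on the mammary level itself, averaged for each position over the heifers that read it and then over the positions of the bin. Of 25128 autosomal bins with a position, 17527 met the criteria on positions and are called eligible. Of these, 4970 were members, which is 28.4% of the eligible bins and 19.8% of all bins, or 497 Mb. The other 12557 eligible bins serve as the comparison.

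Partially methylated domains are long stretches in which CpG methylation falls to intermediate values, outside the short CpG-rich islands that are normally free of methylation. They tend to lie in gene-poor, late-replicating chromatin, and methylation there is lost as cells divide. Placenta and cultured cells are well known for them, and in a tissue made of many cell types each bulk value is an average over those types.

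Reduced representation bisulfite sequencing (RRBS), which reads fragments between restriction sites after unmethylated cytosines have been converted, was available for 15 animals of 4 groups. All were Holstein offspring of dams that were heat stressed (shade only) or actively cooled (shade, fans and water soakers) over the final 6 to 7 weeks of pregnancy. Mammary biopsies were taken on day 21 of the first lactation from 3 in utero cooled heifers (IUCL-H) and 3 in utero heat stressed heifers (IUHT-H), which had been kept together since birth. Liver was taken at birth from bull calves, 5 of them from cooled dams (IUCL-B) and 4 from heat stressed dams (IUHT-B). The paper lists 4 IUCL-H heifers and 5 IUHT-B calves. It left out an IUHT-B calf whose reads could not be aligned, and a further IUCL-H heifer is not among these samples. The paper's bull calves were born in different years, which the sample labels do not give. Tissue, sex and age all differ between heifers and calves and cannot be told apart. A biopsy and a piece of liver both hold several cell types, and a change in the mix of cells cannot be told apart from a change within a cell type.

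The libraries set how firmly each value can be read. Within member bins a heifer library had between 659691 and 915974 positions and 1046603 to 1454451 read calls, with 119 to 165 positions in the median bin. Calf libraries had 24407 to 99329 positions in members, except IUCL-B 4 with 323653 and IUCL-B 5 with 561886. The bin level of a calf therefore rested on 4 to 17 positions in the median member bin, or on 58 and 100 in IUCL-B 4 and 5.

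Calf libraries also stood apart from heifer libraries in what their reads shared. Member positions covered by 1 read in a calf were compared with the same positions in another calf, where more than 10 reads were all but uniform (methylated in 90% or more, or in 10% or less). Calves of the same group, IUCL-B 4 and 5 aside, disagreed at 0.970% to 2.81% of these positions. Calves of different groups disagreed at 10.3% to 26.7%. IUCL-B 4 and 5 disagreed with each other at 15.3%, and with the other calves, those of their own group included, at 21.5% to 25.8%. With IUCL-B 4 and 5 again aside, calves of the same group had 33.0% to 64.2% of member positions of the smaller library in common. Between groups the share was 10.7% to 14.7%. IUCL-B 4 and 5 had 23.1% in common with each other and 13.45% to 28.5% with the other calves of either group. Among heifers the share of disagreement was 4.88% to 13.9% within groups and 5.00% to 16.7% between groups, from as few as 15 single reads a pair. Liver p-values below treat each calf as an independent sample, an assumption that these shared states call into question. With IUCL-B 4 and 5 aside, the sets of calf libraries with shared states coincide with maternal treatment. A liver difference between treatments therefore cannot be told apart from a difference between sets of libraries.

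The name of a domain implies that a whole stretch is lowered, so the members were first checked for where their low positions lay. Positions were classed by how many positions the heifers read in the same 1 kb window. In windows of more than 40 positions, the members held 17.0% of their positions, at a level of 13.9%. The other eligible bins held 4.32% of theirs in such windows, at 49.0%. In windows of 1 to 5 positions the members stood at 66.04% and the others at 73.5%, and in windows of 6 to 10 positions at 70.3% and 76.3%. The gap was 5.98 to 7.45 percentage points in windows of up to 20 positions and 21.3 and 35.2 points in windows of 21 to 40 and of more than 40. A gap is built into the choice of members, which used these same levels, and what is described is where it lay.

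**Figure D1:**
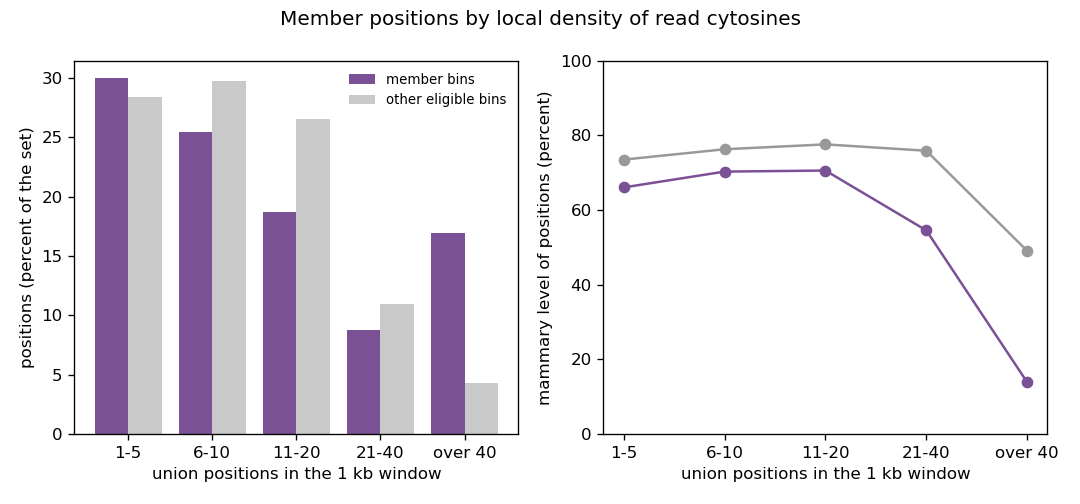
The left panel gives the percent of positions of member bins (purple) and of other eligible bins (grey) by the number of positions read in the same 1 kb window, and the right panel gives the mean mammary level of those positions in percent. Windows of more than 40 positions took 17.0% of member positions at a level of 13.9%, against 4.32% at 49.0% in other bins.

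When every 1 kb window of more than 20 positions was set aside, the members parted into 2 kinds. This split was made after the values had been seen and is given as a description. There were 2640 members (53.1%) that stayed under 65%, with a median level of 61.3%. They were sparse, with a median of 285 positions, and the median of these bins had no position in a dense window. The remaining 2330 members (46.9%) rose to 65% or more, with a median of 75.4% against 75.4% in the other eligible bins. These had a median of 634 positions, of which 32.8% lay in dense windows, and a median level of 58.8% with all positions. The first kind are called still-low bins here, for their mean without dense windows, and the second dense-window bins. The split sets a lower limit of 65% for the second kind outside dense windows. The other eligible bins had the same limit with all positions, and 370 of them were under it without dense windows. These limits bear on how near the medians lie without fixing them.

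Windows of 10 kb showed how much of a member bin was low. Of the 10 kb windows in members, 44.5% were under 65%, against 15.4% in the other eligible bins and 72.0% in members that lay in runs of at least 10 consecutive bins. More windows were under 65% than not in 39.98% of the 4837 member bins that had enough windows to be counted. The same held for 85.7% of 259 such bins in those runs and 2.56% of 12432 others.

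Single sites with at least 20 reads over the pooled heifers were examined for their state. They were few against the 2412755 positions read in members and need not stand for the rest. Their mean level was 65.85% in members and in the runs of at least 10 bins, while the bins of those runs averaged 57.8%. Of 16112 such sites in members, 40.4% were intermediate (20% to 80% methylated), 14.1% were under 20% and 45.6% were over 80%. In the other eligible bins, 33.4% of 54316 sites were intermediate, 3.73% were under 20% and 62.9% were over 80%. In the runs of at least 10 bins, 54.8% of 799 sites were intermediate and 9.01% were under 20%. In these pooled sites the excess over all members was larger for unmethylated than for intermediate sites, and in the long runs it was larger for intermediate ones. Single heifers did not all follow: in IUCL-H 2, 51.6% of member sites and 43.0% of other sites were intermediate, and 13.7% and 7.43% were under 20%.

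The heifer levels of the members spread more than those of other bins. The mean level over member bins was 62.4%, 62.7% and 55.1% in IUCL-H 1, 2 and 3 and 58.5%, 63.3% and 59.4% in IUHT-H 1, 2 and 3. Over the 6 heifers this gave 60.2% ± 3.18 (SD, n = 6) in members and 75.3% ± 1.10 (SD, n = 6) in the other eligible bins. IUCL-H 3 was the lowest heifer in 43.9% of members and in 25.1% of the others. The median SD over heifers of a single bin was 5.95 points in members and 3.66 in the others.

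The share of member positions in dense windows moved with these levels. It was 25.8%, 20.9% and 36.0% in IUCL-H 1, 2 and 3 and 27.9%, 23.4% and 32.0% in IUHT-H 1, 2 and 3. Without dense windows the members stood at 69.1%, 67.4% and 66.4% in IUCL-H and at 66.5%, 69.6% and 69.9% in IUHT-H, so that IUCL-H 3 remained the lowest but by 0.15 points rather than 3.47.

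**Figure D2:**
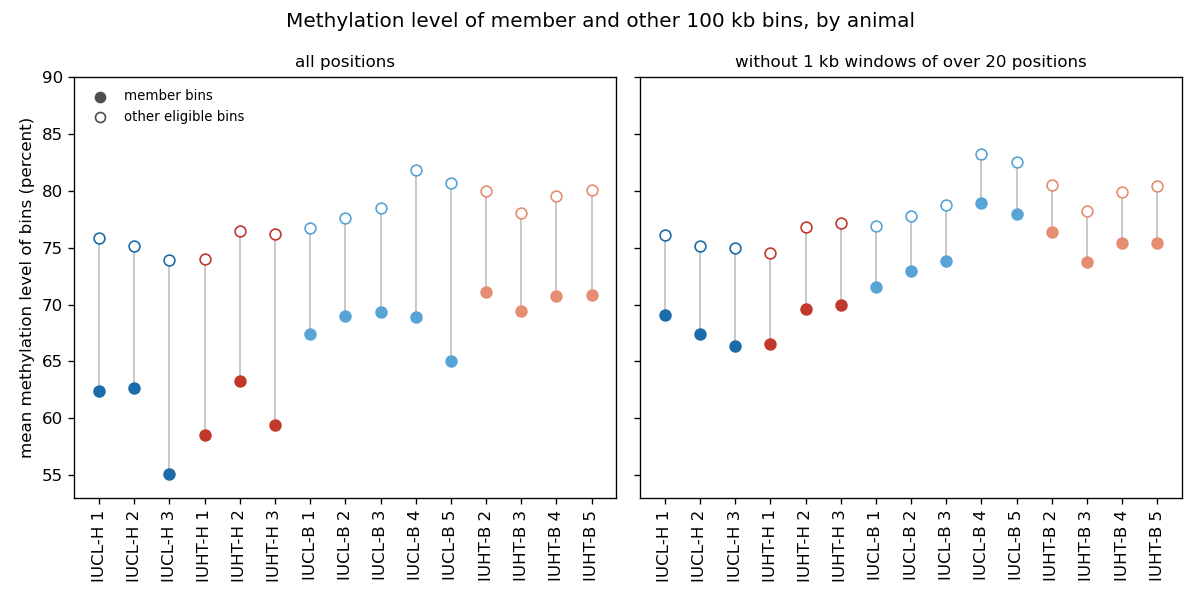
Each column is 1 animal, with the mean methylation level in percent of member bins (filled) and of other eligible bins (open), for all positions on the left and without 1 kb windows of more than 20 positions on the right. Members span 55.1% to 63.3% in heifers and 65.1% to 71.1% in calves with all positions, and 66.4% to 69.9% in heifers without the dense windows.

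To see whether the members were low in an animal that had no part in choosing them, members were chosen anew from 5 heifers and read in the sixth. The depth, defined as the level of other eligible bins minus that of members, was 13.1, 11.5 and 18.8 points in IUCL-H 1, 2 and 3 and 15.0, 12.8 and 16.4 points in IUHT-H 1, 2 and 3. The mean was 14.6 ± 2.69 (SD, n = 6) and positive in 6 of 6 heifers (two-sided exact sign-flip permutation test, p = 0.0313, the smallest that 6 animals can give). Each heifer also helped to choose the members read in the others, so the 6 depths are not independent. The p-value assumes that they are and is given as a value only. Bins chosen in 5 heifers were thus low in the sixth, whichever maternal treatment it came from.

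Members had no gap in level that set them off from the rest. Their median was 60.6%, with 24.96% the lowest and 50.7% the 10th percentile, and the median of the other eligible bins was 73.8%. The 3 members just under the threshold lay at chr20:42900000-42999999, chr6:64200000-64299999 and chr26:17300000-17399999 and rounded to 65.0%, as did the 3 eligible bins just above it, at chr15:80700000-80799999, chr16:33400000-33499999 and chr2:33900000-33999999. In single heifers the bin on chromosome 26 ranged from 52.1% to 74.1% and the bin on chromosome 15 from 61.3% to 73.0%, so membership of bins near the threshold was within the spread between animals.

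The 3 lowest members were low in every heifer. The bin chr21:39600000-39699999 stood at 24.1%, 34.2% and 23.7% in IUCL-H 1, 2 and 3 and at 27.8%, 26.2% and 22.2% in IUHT-H 1, 2 and 3. The bin chr23:30800000-30899999 ranged from 22.96% to 30.03% over the heifers, and chr3:21200000-21299999 from 21.1% to 38.3%. Each had 845 to 969 positions, near the upper limit of density. Pooled over calves their liver levels were 25.3%, 21.9% and 19.7%, but these values rest mainly on IUCL-B 4 and 5, which gave 110 and 234 of the 388 liver positions of the bin on chromosome 21. There IUCL-B 4 and 5 stood at 29.1% and 21.8%, and IUCL-B 1, 2 and 3 at 37.8%, 44.3% and 53.5% on 26 to 31 positions each. IUHT-B 2, 3 and 4 stood at 37.5%, 30.77% and 30% on 24, 13 and 10 positions, and IUHT-B 5 had 1 position.

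Members stood alone more often than in long runs. Consecutive members formed 3014 runs, of which 2075 were a single bin, 128 had at least 5 bins and 21 had at least 10. Runs of at least 5 bins held 18.2% of the members. The next bin, where eligible, was a member for 44.6% of members and for 21.5% of the other eligible bins. Levels of adjacent eligible bins were correlated across bins (Pearson r = 0.30, 15464 pairs, which share libraries and base composition), and those of bins 1 Mb apart less so (r = 0.14, 14115 pairs).

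The kinds of bin differed in how they lay in runs. In runs of at least 10 bins, 97.8% of members were still-low bins, in runs of 5 to 9 bins 93.4%, and among single bins 30.6%. Of the dense-window bins, 67.3% had no neighbour of the same kind, and their longest run was 5 bins.

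The longest run lay at chr16:6700000-9199999 and spanned 25 bins with 7948 positions. Its mean level was 59.7%, 57.2% and 56.1% in IUCL-H 1, 2 and 3 and 56.6%, 59.7% and 59.2% in IUHT-H 1, 2 and 3. The heifers lay within 3.63 points of each other there, less than over all members (8.24 points).

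The next run, chr7:9500000-11799999 with 23 bins, stood at 60.6%, 54.7% and 53.3% in IUCL-H and at 55.3%, 59.2% and 59.0% in IUHT-H. At chr29:38200000-40399999, 22 bins stood at 58.9%, 55.5% and 54.3% in IUCL-H and at 56.6%, 57.9% and 61.4% in IUHT-H. In both runs the values of the treatment groups overlapped.

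The fourth run lay near the start of a chromosome, at chr19:100000-1599999, and held 15 bins. It stood at 55.2%, 55.5% and 50.2% in IUCL-H and at 53.1%, 55.6% and 56.1% in IUHT-H. The fifth, chr20:49500000-50899999, held 14 bins at 61.9%, 58.7% and 57.3% in IUCL-H and at 56.7%, 62.9% and 62.0% in IUHT-H. It was followed, 1 bin later, by another run of 10 bins at chr20:51000000-51999999. Gene names within the runs are not given, because a gene annotation of this assembly was not used here.

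Liver was lowered in these runs as well, to different extents. Pooled over the calves, the liver level was 71.7% in the run on chromosome 16, 63.5% on chromosome 7, 66.3% on chromosome 29, 63.6% on chromosome 19 and 71.3% on chromosome 20. In the run on chromosome 16 the calves ranged from 65.2% to 75.9%, and on chromosome 7 from 54.9% to 66.1%.

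The ends of runs of at least 5 bins, 256 ends in all, were followed at 10 kb. In mammary gland the level was 65.1% ± 1.87 (SD, n = 6) in the 100 kb outside an end and 60.2% ± 2.34 in the 100 kb inside, a step that the choice of the bins fixes in part. In liver, which had no part in the choice, it was 72.9% ± 2.62 (SD, n = 9) outside and 69.4% ± 3.66 inside, and lower inside than outside in 9 of 9 calves, by 0.31 points in IUCL-B 5 and by more than 1 point in the others. The level between 400 and 500 kb outside was 65.8% in mammary gland and 74.0% in liver, so the surroundings of a run were themselves below the other eligible bins. Part of that gap is set by the comparison, because the other eligible bins were all at 65% or more in mammary gland.

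**Figure D3:**
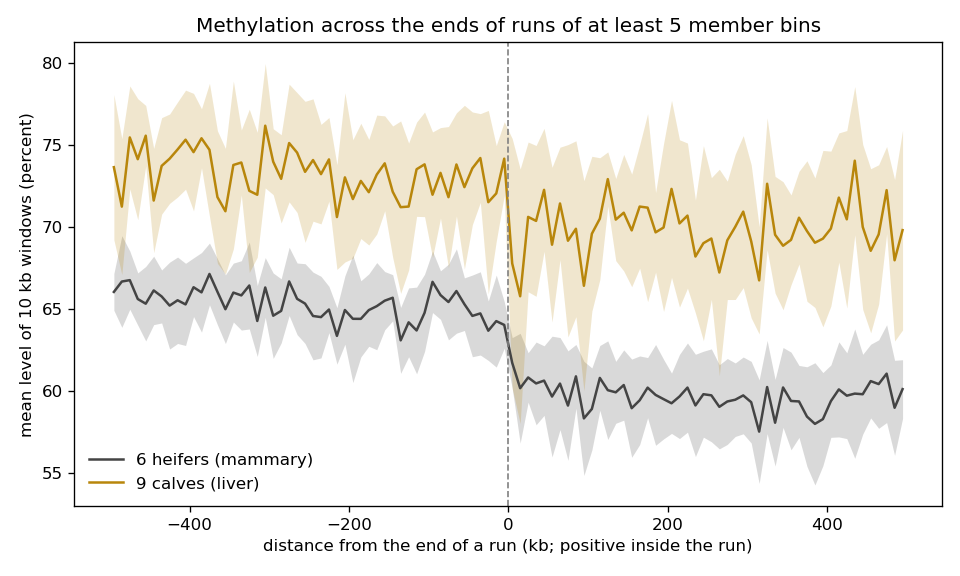
Mean level in percent of 10 kb windows against the distance in kb from the 256 ends of runs of at least 5 member bins, with the inside of the run to the right. Lines are means over 6 heifers and 9 calves and bands are 1 SD over animals. The mammary line steps from 65.1% to 60.2% across the end and the liver line from 72.9% to 69.4%.

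Members were spread unevenly over the chromosomes. They made up 17.7% of the eligible bins of chromosome 27, 18.4% of chromosome 13 and 18.7% of chromosome 22, and 46.3% of chromosome 25 and 47.7% of chromosome 29. These shares rest on unequal numbers of eligible bins, with 147 on chromosome 25, 298 on chromosome 29, 288 on chromosome 27, 369 on chromosome 22 and 451 on chromosome 13. Counted over all bins, eligible or not, members were 15.8% of chromosome 25 and 27.5% of chromosome 29, against 19.8% over the autosomes. On that count they were 9.85% of chromosome 13 and 11.2% of chromosomes 22 and 27. The 21 runs of at least 10 bins fell on 18 chromosomes.

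The start of the chromosomes, where bovine autosomes carry the centromere, was rich in members. In the first 2 Mb, 223 of 373 eligible bins (59.8%) were members, against 33.4% from 2 to 10 Mb and 27.5% over 10 Mb from both ends. In the last 2 Mb, 16 of 69 eligible bins (23.2%) were members. The still-low bins accounted for the difference, with 48.5% of eligible bins in the first 2 Mb and 13.4% beyond 10 Mb from the start, while dense-window bins took 11.3% and 13.7%. Runs of at least 10 bins lay within 2 Mb of the start on chromosomes 15, 19, 21 and 23.

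**Figure D4:**
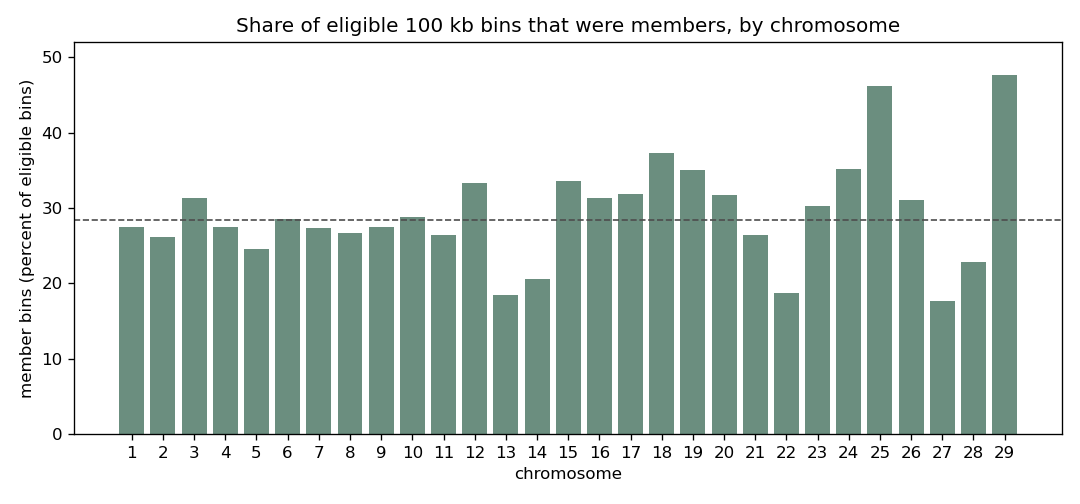
Bars give the percent of the eligible 100 kb bins of each autosome that were members, and the dashed line the share over all autosomes (28.4%). Chromosomes 25 and 29 reach 46.3% and 47.7%, and chromosomes 13, 22 and 27 lie under 19%.

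The same bins were then read in liver, to ask whether the pattern was shared between the tissues. The mean level over members was 67.4%, 69.0%, 69.4%, 68.9% and 65.1% in IUCL-B 1 to 5 and 71.1%, 69.4%, 70.8% and 70.9% in IUHT-B 2 to 5. The other eligible bins stood between 76.8% and 81.8% in the calves. Every calf was thus higher in the members than every heifer, and lower in members than in the other bins. The tissues stood in the same order in the other eligible bins, where heifers ranged from 74.0% to 76.5%. With calves pooled, mammary gland was below liver in 79.5% of members and in 85.2% of the others.

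The liver depth was 9.32, 8.58, 9.14, 12.9 and 15.6 points in IUCL-B 1 to 5 and 8.92, 8.66, 8.77 and 9.19 points in IUHT-B 2 to 5. The mean was 10.1 ± 2.45 (SD, n = 9) and positive in 9 of 9 calves (two-sided exact sign-flip permutation test, p = 0.00391, the smallest that 9 animals can give). IUCL-B 4 and 5, the calves with the widest libraries, had the largest depths, and the other 7 calves gave 8.94 ± 0.284 (SD, n = 7). The share of member positions in dense windows was 27.1% and 33.7% in IUCL-B 4 and 5 and 18.7% to 23.4% in the other calves.

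Both kinds of bin were low in liver when all positions were counted. The still-low bins stood at 71.2% ± 2.48 (SD, n = 9) and the dense-window bins at 66.8% ± 5.06, against 79.2% ± 1.61 in the other eligible bins. Without dense windows, all members together were 4.68 points below the other eligible bins in liver (exact sign-flip permutation test, n = 9, p = 0.00391), against 10.1 with them.

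The kinds were then read without dense windows. In mammary gland the difference between them restates the split, which was made on these heifers, and the liver values are the ones that had no part in it. The still-low bins were 8.21 ± 0.961 points (SD, n = 9) below the other eligible bins in liver and 14.5 ± 1.22 (SD, n = 6) in mammary gland. IUCL-B 4 and 5 had the smallest liver depths of the still-low bins (7.05 and 7.04 points), and the other calves gave 8.54 ± 0.804 (SD, n = 7). The depth of the dense-window bins was 0.731 ± 0.545 points (SD, n = 9) in liver and −0.180 ± 0.403 (SD, n = 6) in mammary gland. In runs of at least 10 bins the depth was 11.6 ± 0.9802 points (SD, n = 9) in liver and 17.2 ± 1.33 (SD, n = 6) in mammary gland. When the dense windows were left out before members were chosen, giving 3146 bins, the liver depth was 8.52 points (exact sign-flip permutation test, n = 9, p = 0.00391).

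Grouped by mammary level, members that were lower in mammary gland were also lower in liver. Members under 45% in mammary gland (186 bins) had a liver level of 49.8% ± 5.51 (SD, n = 9). Those between 60% and 65% (2706 bins) stood at 72.8% ± 1.42, and eligible bins of 80% or more (2348 bins) at 84.4% ± 1.74. With calves pooled, where IUCL-B 4 and 5 gave most positions, 42.4% of members were under 65% in liver, against 2.29% of the other eligible bins, and members made up 88.0% of the eligible bins that were low in liver. In single calves 31.5% to 47.4% of members were under 65%. On the other hand, with calves pooled, 26.3% of members had a liver level of 75% or more. Across eligible bins the levels of the tissues were correlated (Spearman rho = 0.72, n = 17525 bins that share their base composition and positions, given without a test), and within the 4969 members so compared rho was 0.61.

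**Figure D5:**
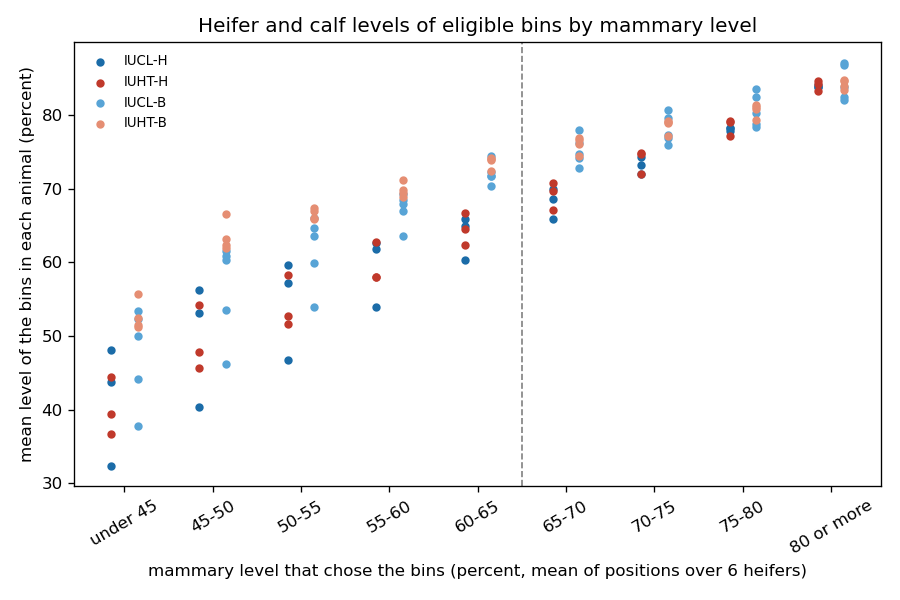
Eligible bins are grouped by the mammary level that chose them (percent, horizontal axis), and each point is the mean level in percent of a group's bins in 1 animal, heifers on the left and calves on the right of each group. The dashed line marks the threshold. The calf mean rises from 49.8% in the lowest group to 84.4% in the highest and lies above the heifer mean in every group, while single calves lie below some heifers in several groups, among them IUCL-B 5 in the 3 groups under 55%.

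Sites in liver were seldom intermediate. Of member sites with at least 20 reads, 0.305% to 7.52% were between 20% and 80% methylated in a calf, and 24.2% to 33.0% were under 20%. In the other eligible bins of the calves 0.435% to 8.22% were intermediate and 14.2% to 19.1% under 20%, so intermediate sites were as rare outside members. In single heifers 45.1% to 51.6% of such member sites were intermediate. The reads of a calf site may be copies of few molecules, which these libraries do not mark, so the states of calf sites are not set against those of heifers as a difference between tissues.

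Maternal heat stress was compared with cooling in the mammary gland over all members. Members averaged 60.1% ± 4.32 (SD, n = 3) among IUCL-H and 60.4% ± 2.55 (SD, n = 3) among IUHT-H, a difference of 0.361 points (two-sided exact permutation test, p = 0.8, adjusted p = 1.0 over 5 tests). The depth was 14.9 ± 3.48 in IUCL-H and 15.1 ± 1.84 in IUHT-H (difference 0.232 points, exact permutation p = 1.0, adjusted p = 1.0). Both differences were smaller than the spread within a group, and with 3 against 3 heifers the smallest p is 0.1. Without IUCL-H 3 the difference in level was −2.47 points (exact permutation p = 0.4) and that in depth 2.43 points (exact permutation p = 0.3). The sign of the difference in level also turned without IUHT-H 2 (−1.32 points), and that in depth turned without IUCL-H 1 (−0.446), IUCL-H 2 (−1.06) or IUHT-H 3 (−0.575), so neither sign was stable to the loss of 1 heifer.

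In single bins, the sums of methylated and unmethylated calls were compared by the quasi-likelihood test of edgeR over all 24578 bins with at least 200 positions. None of the 4970 members had an adjusted p under 0.05, nor did any other bin (0% of all tested). At an unadjusted p under 0.05 the counts were 135 members (2.72%), 86 of them higher in IUHT-H, and 515 of all tested bins (2.10%). By limma no bin was called either, with 171 members (3.44%) and 699 of all tested bins (2.84%) at an unadjusted p under 0.05. In both tests fewer bins passed this unadjusted threshold than it admits when groups do not differ. The counts of 0 therefore do not show that the groups were alike. A logistic regression with overdispersion called none, with 57 members (1.15%) and 332 of all tested bins (1.35%) at an unadjusted p under 0.05. This last test estimates the spread from the 6 heifers in each bin alone, and its count of 0 is given as a value only. A logistic regression without an overdispersion term, which treats each read as independent, called 456 members (162 higher and 294 lower in IUHT-H), or 9.18%, against 8.92% of all tested bins.

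Non-overlapping groups were no more frequent in members. All 3 IUHT-H heifers were above all 3 IUCL-H heifers in 208 members (4.19%), against 4.37% of all tested bins, and below in 76 members (1.53%), against 2.55%. In runs of at least 10 bins, 20 of 269 bins (7.43%) had every IUHT-H heifer above and 4 had every IUHT-H heifer below. Within-group spread was wider in members, with a median dispersion in the binomial logistic regression of 3.05 against 2.30 over all tested bins. Without IUCL-H 3, 577 members (11.6%) and 1705 of all tested bins (6.94%) had an unadjusted p under 0.05 by edgeR. Of these members 527 were lower in IUHT-H, and the smallest adjusted p was 0.093. With any other heifer left out the shares were 1.83% to 4.67% of members and 1.56% to 3.52% of all tested bins. Most such members were lower in IUHT-H without IUHT-H 2 (178 of 232). Most were higher without IUCL-H 1, IUCL-H 2, IUHT-H 1 (167 of 194) or IUHT-H 3. Members were kept as chosen with all heifers, IUCL-H 3 included.

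In liver, members stood at 68.0% ± 1.78 (SD, n = 5) in cooled IUCL-B calves and at 70.5% ± 0.7495 (SD, n = 4) in heat stressed IUHT-B calves. Each IUHT-B calf was above each IUCL-B calf, though IUHT-B 3 (69.43%) and IUCL-B 3 (69.37%) all but met. The difference of 2.57 points had an exact permutation p of 0.0159 and did not pass the threshold after adjustment over 5 tests (adjusted p = 0.0794). Without dense windows the same members stood at 75.1% and 75.2%, a difference of 0.174 points (exact permutation p = 0.952). Without IUCL-B 4 and 5 the difference was 1.93 points (exact permutation p = 0.0571, adjusted p = 0.286). Among the calves that remain, maternal treatment and the sets of libraries with shared states coincide and cannot be told apart.

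The depth of members in liver averaged 11.1 ± 3.04 points (SD, n = 5) for IUCL-B and 8.88 ± 0.232 (SD, n = 4) for IUHT-B. The difference was −2.23 points (exact permutation p = 0.254, adjusted p = 0.601) and shrank to −0.130 without IUCL-B 4 and 5 (exact permutation p = 0.6). Heat stressed minus cooled, the difference in depth was 0.232 points in mammary gland and −2.23 points in liver. The mammary value minus the liver value was 2.46 points (exact permutation of labels within each tissue, p = 0.361, adjusted p = 0.601). A difference between maternal treatments was thus not established in members in either tissue.

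By kind of bin, the mammary means of the still-low bins without dense windows were 60.5% ± 2.00 in IUCL-H and 62.1% ± 2.59 in IUHT-H (SD, n = 3 each). In liver they were 71.5% ± 4.11 (SD, n = 5) for IUCL-B and 71.7% ± 1.18 (SD, n = 4) for IUHT-B. With all positions, the dense-window bins stood at 59.8% ± 7.52 in IUCL-H and 59.0% ± 4.16 in IUHT-H (SD, n = 3 each), a difference of −0.837 points. In liver these bins stood at 64.6% ± 6.13 (SD, n = 5) for IUCL-B and 69.5% ± 0.579 (SD, n = 4) for IUHT-B, a difference of 4.91 points, with IUCL-B 4 and 5 at 62.1% and 54.98% and IUCL-B 1, 2 and 3 between 67.7% and 69.2%. The still-low bins with all positions differed by 1.42 points in mammary gland and 0.527 in liver. In the long runs without dense windows the mammary means were 57.8% and 59.4%, and the liver means 68.3% and 68.0%. These values were not tested, because the kinds of bin were set after the values had been seen.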

How the data were processed

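Member bins, groups of bins and comparisons were chosen with earlier results of these data known. Per the study's methods, the authors digested DNA with MspI and TaqαI, trimmed reads with Trim Galore and aligned them with Bismark (post-bisulfite setting) to assembly UMD3.1.1, ignoring the first 6 bases. The submitters' processing notes name Bismark 0.17.0 and Trim Galore 0.4.4. The authors deposited, for each animal and position, the count of methylated and of unmethylated calls. They also deposited the percent methylated, which equalled the recomputed value within 1e-06 percentage points on every line. Positions with 1 read were listed and kept (62.0% to 65.8% of positions in a heifer). PCR copies could not be told from separate molecules.

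Bin levels were unweighted means over positions, and animal levels unweighted means over bins. Values per animal entered exact permutation tests (two-sided), on the absolute difference of means, and 5 treatment tests were adjusted by Benjamini-Hochberg. Per-bin counts were tested with edgeR 4.0.16 (quasi-likelihood, library term for each heifer) and limma 3.58.1 in R 4.3.3, checked on simulated counts. The simulation gave all bins the same spread between heifers and held no outlying heifer, so it does not show how the tests act on these heifers. Python 3 scripts used numpy and scipy. The bins named are the 5 longest runs, the 3 lowest members and the 3 on each side of the threshold. Nothing says whether heifers or calves shared a dam or sire, so the independence of animals that the tests assume is not established. The p-values concern these animals only. Alternatives changed the threshold, the position limits, the bin start, the weighting, the read minimum, the dense windows and the animals used. No sequence is printed, because a genome of this assembly was not used here.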

Additional observations from a re-analysis of the deposited data

How the results depend on the processing

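The number of members depended on the rule, with 2264 at a threshold of 60% and 8625 at 70%. Some settings also changed the number of eligible bins. With at least 500 positions, 2179 of 7696 eligible bins (28.3%) were members, and without dense 1 kb windows 3146 of 24080 (13.1%). Without a density limit 6467 of 24578 (26.3%) were members. The number was 3888 with pooled calls and 4397 to 4905 when 1 heifer was left out. Bins shifted by 50 kb gave 4970 members again, from 17466 eligible bins. The held-out mammary depth was 13.6 to 17.3 points under 7 alternatives and the liver depth 4.68 to 13.3 under 20, each past 0.05, with the lowest for the same members without dense windows, and 9.44 to 10.3 when 1 calf was left out.

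The mammary difference in level (IUHT-H minus IUCL-H) changed sign at a threshold of 60% (−0.163 points), with at least 500 positions (−0.857), without a density limit (−0.0710) and with positions of at least 5 reads (−1.57). It ranged from −2.47 to 1.70 points when 1 heifer was left out. The difference in depth changed sign at a threshold of 70% (−0.206), without dense windows before the choice (−1.04) or after it (−0.305), and at positions read in all 6 heifers (−0.0398). It ranged from −1.06 to 2.43 when 1 heifer was left out. The difference between tissues changed sign without dense windows (−0.864). The heifer tests cannot reach 0.05 (smallest p 0.1), and the cause of the changes of sign was not tested.

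The liver difference in level was 0.174 to 4.72 points under 21 alternatives and 1.85 to 2.94 when 1 calf was left out, without an adjusted p under 0.05. The liver difference in depth was −3.73 to −0.130 under 20 alternatives and −2.86 to −1.11 when 1 calf was left out. With a replicate block over calf numbers 2 to 5, the difference in level was 2.44 points (exact permutation p = 0.125, the smallest possible for 4 pairs) and that in depth −2.68 (exact permutation p = 0.25). Same-numbered calves showed no shared deviation (correlations −0.027 to 0.0086 across 4501 member bins). Bin levels of most calves rest on few positions, so these correlations cannot settle whether the numbers pair the calves. Per bin, edgeR, limma and the overdispersed logistic model called 0 bins and the logistic model without overdispersion 2193. Liver levels of single bins rest on few positions, and 3 heifers a group limit every mammary test. Dropping dense windows from the same members and restricting to long runs were chosen after seeing the data.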
